A study of Mus musculus with 2 samples.

Results

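The potassium channel genes described here are all genes of the table whose symbol is Kcn followed by letters and then a number. The rule finds 50 of 22383 genes. It takes in pore-forming subunits of every class and their auxiliary subunits, and leaves out the noncoding gene Kcnq1ot1. The family was chosen by the count of Kcnj15 in these same libraries, which was known to be far higher with the hairpin, so all values given are a description with no test. The RNA came from 2 stably infected lines made from iHFSC2, immortalized hair follicle stem cells of the mouse. The control cells carry an empty lentiviral vector. The shcircSmad5 cells carry a vector for a hairpin against circSmad5, a circular RNA from the Smad5 gene. Both were infected, put under puromycin from day 4 and stable at day 15, and 3 µg of total RNA per sample was depleted of ribosomal RNA. There was 1 library per group, and no control hairpin was analysed here, so no difference has a replicate check, and effects of the hairpin cannot be told apart from those of separate selection or of any hairpin.

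Potassium channels let potassium leave or enter the cell along its gradient and so set the membrane voltage, cell volume and the drive for calcium entry. Inward rectifiers (Kir) and tandem-pore background channels (K2P) are open near the resting voltage, voltage-gated channels (Kv) open on depolarization, and another class opens with calcium or sodium in the cytosol. Auxiliary subunits such as the KCNE proteins change the gating and traffic of the pores. In keratinocytes and other epithelial cells, these channels take part in volume control, migration and the response to calcium.

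The libraries held 39261010 counts (empty vector) and 38382081 counts (shcircSmad5). A size rule stands in for a test. It calls a gene when either library holds 20 counts or more, when the TMM-scaled ratio (shcircSmad5 over empty vector) is 2-fold or more either way, and when the 95% counting interval of that ratio leaves out 1. In the comparison of shcircSmad5 with empty vector, the rule called 8.43% of the 13596 genes with enough counts higher and 6.24% lower. Among the 11605 protein-coding genes it called 4.61% higher and 6.38% lower. The keratinocyte genes Krt5 and Krt14 reached 2394 and 2361 FPKM with the empty vector and 2664 and 3359 FPKM with the hairpin. Stem cell markers were mixed. The bulge marker Cd34 had 0 counts in both libraries and Lhx2 had 4 and 5. By contrast, Sox9 had 8829 and 5301 counts, Nfatc1 2300 and 2077, and Tbx1 471 and 945. Of 10 basal and stem cell markers with enough counts, 0 were higher and 1 was lower, Krt15 (253 and 79 counts).

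Of the 50 potassium channel genes, 14 reached 20 counts in either library. By the size rule, 1 of these 14 was higher in the shcircSmad5 library (7.14%, against 8.43% of all genes and 4.61% of protein-coding genes) and 2 were lower (14.3%, against 6.24% and 6.38%). The higher gene was Kcnj15, and the lower ones included the weakly expressed voltage-gated gene Kcnb2. With so few genes these shares are not a result about the family, and Kcnj15 was known before the family was picked. The median log2 ratio of the 14 genes was 0.06, beside -0.02 for all 13596 genes, with 7 genes above 0 and 7 below. The abundant channel genes Kcnk1 and Kcnn4 differed by 1.21-fold and 1.18-fold, in opposite directions.

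**Figure D1:**
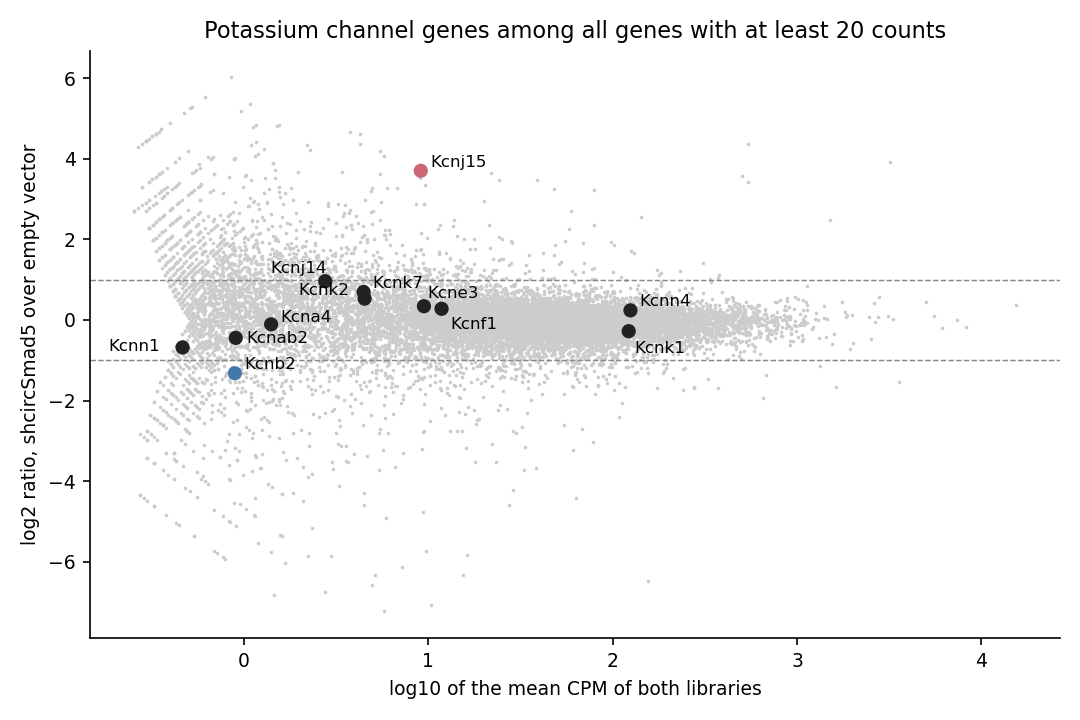
Each grey point is a gene that reached 20 counts in either library, placed by the log10 of its mean CPM in both (horizontal) and its log2 ratio of shcircSmad5 over empty vector (vertical), with dashed lines at 2-fold. Large points are 12 of the 14 potassium channel genes: Kcnj15 (red) lies at 3.70, Kcnb2 (blue) at -1.32, and the other 10 (black) lie between the lines.

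Kcnj15 (ENSMUSG00000062609, GRCm38 chromosome 16, 95257558 to 95300260, plus strand) encodes the inward rectifier Kir4.2, a channel of kidney and other epithelia that has been linked to the guidance of migrating cells by electric fields. It had 50 counts with the empty vector and 663 with the hairpin, which is 1.30 and 16.9 CPM. The gene was 13.0-fold higher in the shcircSmad5 library, with a 95% counting interval of 9.74 to 17.7. Of the 13596 genes, 62 had a higher ratio, and of 10308 protein-coding genes that reached 100 counts, 5 did. Per length its level was 0.202 FPKM (95% Poisson interval 0.150 to 0.266) with the empty vector and 2.74 FPKM (2.53 to 2.95) with the hairpin. That moved it from place 10 to place 6 among the channel genes by FPKM. The intervals here and below cover counting error only. Of its exonic bases, 5.27% are shared with Gm49643 on the opposite strand. Whether counting used strand is not given in the sources used here, so reads of such overlaps cannot be told apart.

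The genes around Kcnj15 were mostly too weakly counted to compare. Within 500 kb of the gene the table lists 5 other genes. Ets2, a transcription factor gene, was the only one with at least 20 counts, at 14505 and 16671 (log2 ratio 0.17, 0.14 to 0.20). Kcnj6, the neighbouring inward rectifier gene, had 1 and 0 counts, and Gm31641, an antisense gene that overlaps Kcnj15, had 0 and 4. The median log2 ratio over the 413 genes of chromosome 16 with enough counts was 0.11.

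The promoter stretch of Kcnj15 is shown beside those of Kcnk1 and Kcnn4, the channel genes with the highest levels, because these 3 genes carry the main values of the family. Each line gives the 250 bases before the RefSeq start site, from 5′ to 3′ on the gene's own strand (GRCm38.p6, all plus strand). They lie at chr16:95257308-95257557 (Kcnj15), chr8:125994852-125995101 (Kcnk1) and chr7:24370013-24370262 (Kcnn4). Capitals mark matches to 5 searched motifs on either strand, which may overlap one another.
Kcnj15: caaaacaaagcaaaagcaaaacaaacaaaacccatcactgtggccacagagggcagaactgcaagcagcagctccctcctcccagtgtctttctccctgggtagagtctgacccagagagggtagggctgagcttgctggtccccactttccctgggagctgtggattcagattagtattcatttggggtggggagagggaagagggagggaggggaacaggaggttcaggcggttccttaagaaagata
Kcnk1: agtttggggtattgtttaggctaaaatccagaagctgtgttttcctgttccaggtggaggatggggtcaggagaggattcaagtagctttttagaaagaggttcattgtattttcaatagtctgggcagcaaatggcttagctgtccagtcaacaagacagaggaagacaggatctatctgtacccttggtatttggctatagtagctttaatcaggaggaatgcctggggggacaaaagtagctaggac
Kcnn4: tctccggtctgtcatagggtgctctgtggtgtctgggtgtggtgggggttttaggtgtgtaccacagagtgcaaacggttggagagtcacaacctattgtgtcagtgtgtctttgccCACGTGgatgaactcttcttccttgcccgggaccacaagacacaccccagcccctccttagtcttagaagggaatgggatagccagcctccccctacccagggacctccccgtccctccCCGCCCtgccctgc
The Kcnn4 stretch holds the E-box letters CACGTG, which 6.02% of 32851 promoters of this length hold, and a GC box (GGGCGG, read here on the minus strand), which 32.7% hold. In the Kcnj15 and Kcnk1 stretches none of the searched letters occur, which were also the AP-1 letters TGANTCA (6.75% of promoters), the GC-rich letters GGCGCC known from BMP-responsive elements (9.59%) and the TATA box letters TATAAA (12.4%). The Kcnj15 stretch has 1 CpG and 53.2% G or C, Kcnk1 has 0 and 44.4%, and Kcnn4 has 6 and 58.8%, beside medians of 6 and 52.4% over all promoters. Of the 50 genes, 35 had a promoter entry.

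The other inward rectifiers were weakly expressed in both libraries. Kcnj14 (chromosome 7, 45816460 to 45824782), which encodes a strong rectifier, had 72 and 143 counts, 0.675 FPKM (0.528 to 0.850) with the empty vector and 1.37 FPKM (1.16 to 1.62) with the hairpin. Its log2 ratio was 0.96 (0.54 to 1.39), just under the 2-fold limit. It was called higher under 4 of 5 other scalings (total counts, upper quartile, totals without the mitochondrial and top 20 genes, and TMM over protein-coding genes), where its ratio passed 2-fold, and with each chromosome centred. Kcnj4 had 14 and 3 counts, Kcnj6 1 and 0, and Kcnj10 and Kcnj12 0 in both.

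Set against each other within a library, which no scaling affects, Kcnj15 stood at 0.299 of the FPKM of Kcnj14 with the empty vector and at 2.00 times it with the hairpin. The ratio between these ratios, from the counts, was 6.66 (4.37 to 10.2). Over all 6 inward rectifiers the counts summed to 137 and 809, a log2 ratio of 2.53 (2.27 to 2.80). Kcnj15 made up 36.5% of that sum with the empty vector and 82.0% with the hairpin. Without it, the other 5 genes summed to 87 and 146 counts, a log2 ratio of 0.72 (0.32 to 1.12). Most of these counts were those of Kcnj14 (72 and 143), and Kcnj4 went the other way (14 and 3). This sum is therefore not a result about the 5 genes as a group.

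Among the 9 K2P genes, Kcnk1 took nearly all of the level and the size rule called none of the 3 with enough counts. Kcnk1 (ENSMUSG00000033998, chromosome 8, 125995170 to 126030685), which encodes the background channel TWIK-1, had 5145 and 4328 counts. Of its exonic bases, 8.01% lie under exons of the opposite-strand gene Gm45875. Its level was the highest of the family in both libraries, 58.6 FPKM (57.0 to 60.3) with the empty vector and 50.5 FPKM (49.0 to 52.0) with the hairpin, and its log2 ratio was -0.28 (-0.34 to -0.22). Kcnk7, whose product has not been found to carry current by itself, had 131 and 216 counts (2.13 and 3.59 FPKM, log2 ratio 0.69, 0.37 to 1.02). Kcnk2, which encodes the stretch- and lipid-sensitive channel TREK-1, had 142 and 209 counts (0.732 and 1.10 FPKM, log2 ratio 0.53, 0.21 to 0.85). Of the exonic bases of Kcnk2, 12.2% are shared with A430027H14Rik on the opposite strand.

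The counting intervals of Kcnk7 and Kcnk2 lay above 0 and that of Kcnk1 below it. Without Kcnk1, the other 8 K2P genes summed to 312 and 439 counts, a log2 ratio of 0.46 (0.25 to 0.68). Kcnk7 and Kcnk2 held most of these counts, and others, among them Kcnk15 and Kcnk6, went the other way. The sum is therefore not a result about the 8 genes as a group. The ratio of Kcnk1 to Kcnk7 in FPKM was 27.5 with the empty vector and 14.0 with the hairpin. Under 20 counts stood Kcnk4 (9 and 11), Kcnk15 (15 and 0), Kcnk6 (13 and 0), Kcnk9 (0 and 3), Kcnk12 (2 and 0) and Kcnk10 (0 in both).

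Kcnn4 was the only gene at a high level among the 7 genes of calcium- or sodium-activated channels. Kcnn4 (ENSMUSG00000054342, chromosome 7, 24370263 to 24386690) encodes the intermediate-conductance calcium-activated channel, which in many cells supports proliferation and migration. It had 4403 and 5298 counts, 21.9 FPKM (21.3 to 22.6) and 27.0 FPKM (26.3 to 27.7), and a log2 ratio of 0.24 (0.18 to 0.30). Kcnn1, a small-conductance channel gene, had 22 and 14 counts (log2 ratio -0.68, -1.76 to 0.35), and 2.88% of its exonic bases are shared with A230052G05Rik on the opposite strand. The large-conductance channel gene Kcnma1 had 2 and 1 counts, Kcnn2 0 and 2, Kcnu1 0 and 2, and Kcnn3 and Kcnt2 0 in both.

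Kcnk1 and Kcnn4 together made up 86.7% of the summed FPKM of all 50 genes with the empty vector and 80.3% with the hairpin. The ratio of Kcnk1 to Kcnn4 in FPKM was 2.67 with the empty vector and 1.87 with the hairpin. The ratio between these ratios was 0.699 (0.660 to 0.740), and it does not depend on the scaling of the libraries. Kcnk1 was above Kcnn4, and Kcnn4 above all other members, beyond counting error in both libraries.

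**Figure D2:**
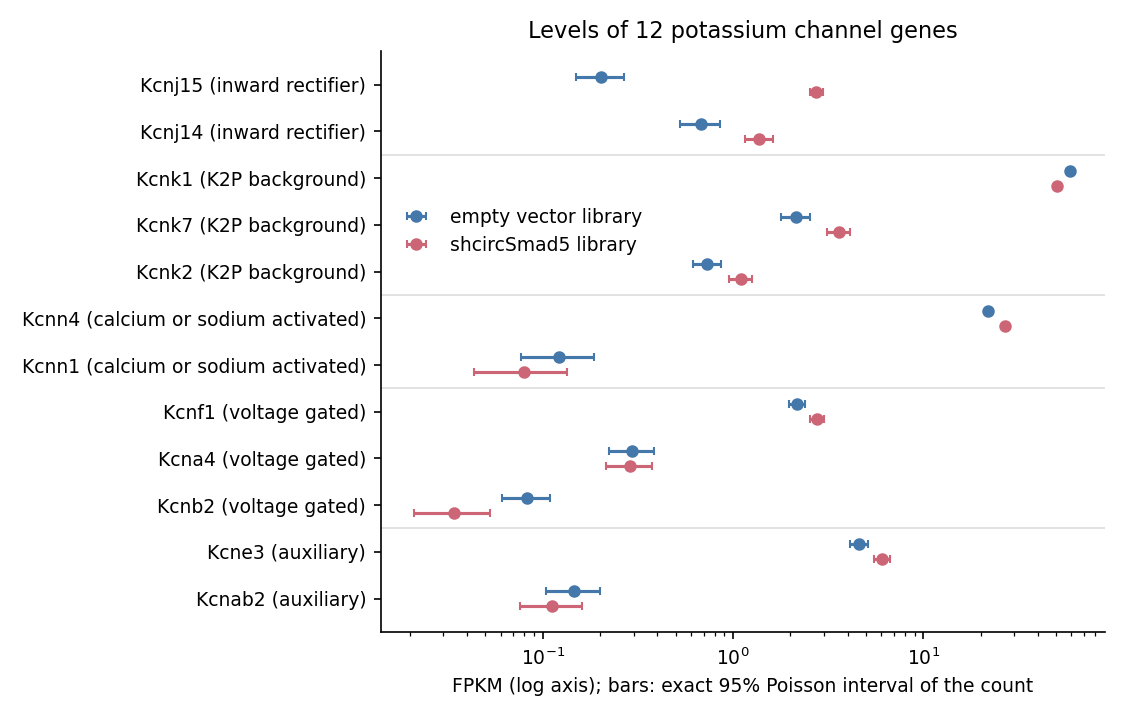
FPKM on a log axis for 12 of the 14 potassium channel genes that reached 20 counts, by class, with exact 95% Poisson intervals of the count. Kcnk1 and Kcnn4 lie farthest right in both libraries, Kcnj15 goes from 0.202 to 2.74 FPKM, and the intervals of Kcna4, Kcnab2 and Kcnn1 overlap between the libraries.

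The 17 voltage-gated genes were led by level by Kcnf1. Kcnf1 (ENSMUSG00000051726, chromosome 12, 17172100 to 17176888) encodes a silent subunit, which forms no channel alone and modifies Kv2 channels such as that of Kcnb2. It had 410 and 507 counts, 2.18 FPKM (1.97 to 2.40) and 2.76 FPKM (2.52 to 3.01), with a log2 ratio of 0.28 (0.09 to 0.47). Kcnb2 (chromosome 1, 15287254 to 15723750) went from 49 counts with the empty vector to 20 with the hairpin, which is 2.50-fold lower (1.46 to 4.44). Its level was 0.0823 FPKM with the empty vector and 0.0344 with the hairpin. The FPKM of Kcnf1 was 26.5 times that of Kcnb2 with the empty vector and 80.3 times with the hairpin, a ratio of ratios of 3.03 (1.73 to 5.47).

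Around Kcnb2, none of 5 other genes within 500 kb with at least 20 counts was called, beside 14.7% of all genes in either direction. With 5 genes this is not a result about the region. The call of Kcnb2 ends on the log2(FPKM + 0.1) scale, where low values shrink toward 0 (-0.44), with a fold limit of 3, and with a minimum of 100 counts, which it does not reach.

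Kcna4, a gene of the transient A-type current, had 56 and 53 counts (log2 ratio -0.11, -0.68 to 0.46, and 0.05 with each chromosome centred). The interval does not exclude 0. Without Kcnf1, the other 16 voltage-gated genes summed to 231 and 145 counts, a log2 ratio of -0.70 (-1.01 to -0.40). Kcnb2 is part of that lower sum, while Kcnq1 and Kcnd1 went the other way, so the sum is not a result about the 16 genes. The whole class summed to 641 and 652, with a log2 ratio of -0.01 that lies above 0 under the 5 other scalings. Among the voltage-gated genes under 20 counts were Kcnd3 (12 and 0), Kcnq1 (3 and 12), Kcnd1 (1 and 7) and Kcnh1 (6 and 0). Kcna7, Kcns1, Kcnh2 and Kcnv2 had at most 2 counts, and Kcnh4 and Kcnh5 had 0 in both. Kcnq1ot1, the antisense noncoding gene that shares 2.96% of the exonic bases of Kcnq1, had 3484 and 3921 counts.

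Of the 11 auxiliary subunit genes, Kcne3 stood out by level and the size rule called none. Kcne3 (ENSMUSG00000035165, chromosome 7, 100176502 to 100184869) encodes a small subunit that holds Kcnq1 channels open in epithelia. It had 321 and 415 counts, 4.60 FPKM (4.11 to 5.13) and 6.08 FPKM (5.51 to 6.69), and a log2 ratio of 0.34 (0.13 to 0.56). Of its exonic bases, 0.506% are shared with Gm34821 on the opposite strand. Its level was the third of the family in both libraries, while its partner gene Kcnq1 had only 3 and 12 counts. Kcnab2, a cytosolic beta subunit of Kv1 channels, had 40 and 30 counts (log2 ratio -0.44, -1.18 to 0.27). Under 20 counts were Kcnab3 (9 and 18), the calcium sensor subunits Kcnip2 (16 and 15), Kcnip3 (0 and 4) and Kcnip1 (0 and 2), and the KCNE genes Kcne2 (0 and 4) and Kcne1 (1 and 1). The subunits of the large-conductance channel, Kcnmb4 (5 and 2), Kcnmb2 (2 and 0) and Kcnmb3 (0 in both), were as low as its pore gene Kcnma1.

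**Figure D3:**
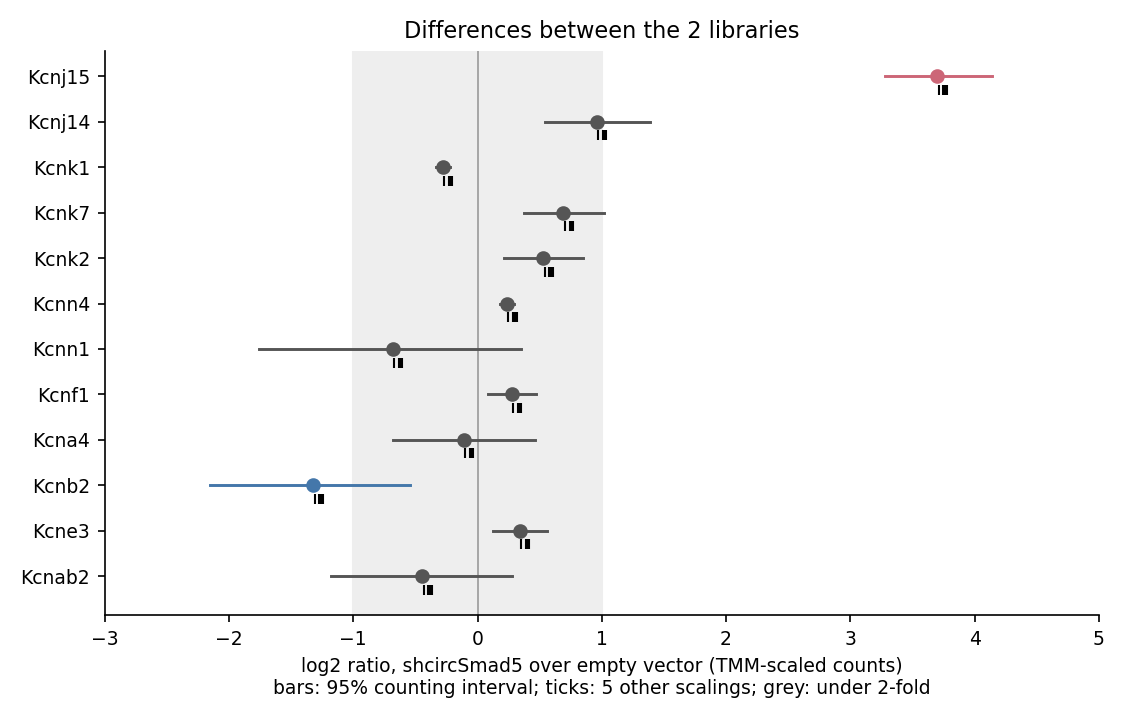
Log2 ratio of shcircSmad5 over empty vector for the same 12 genes, with 95% counting intervals and ticks for 5 other scalings. The grey band is under 2-fold. Kcnj15 lies above it and Kcnb2 below it under every scaling shown. Kcnj14 lies at the edge of the band, inside it with the main scaling and just outside it with 4 of the others.

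By level, the order of the leading channel genes was largely kept. In the empty vector library it ran Kcnk1, Kcnn4, Kcne3, Kcnf1, Kcnk7, Kcnk2, Kcnj14 and then genes under 0.3 FPKM. In the shcircSmad5 library it ran Kcnk1, Kcnn4, Kcne3, Kcnk7, Kcnf1, Kcnj15, Kcnj14 and Kcnk2. The Poisson intervals of Kcnf1 and Kcnk7, and of Kcnk2 and Kcnj14, overlapped in the empty vector library. In the shcircSmad5 library those of Kcnf1 and Kcnj15, and of Kcnj14 and Kcnk2, overlapped. Of the 50 genes, 5 reached 1 FPKM with the empty vector and 8 with the hairpin, the added ones being Kcnj15, Kcnj14 and Kcnk2.

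**Figure D4:**
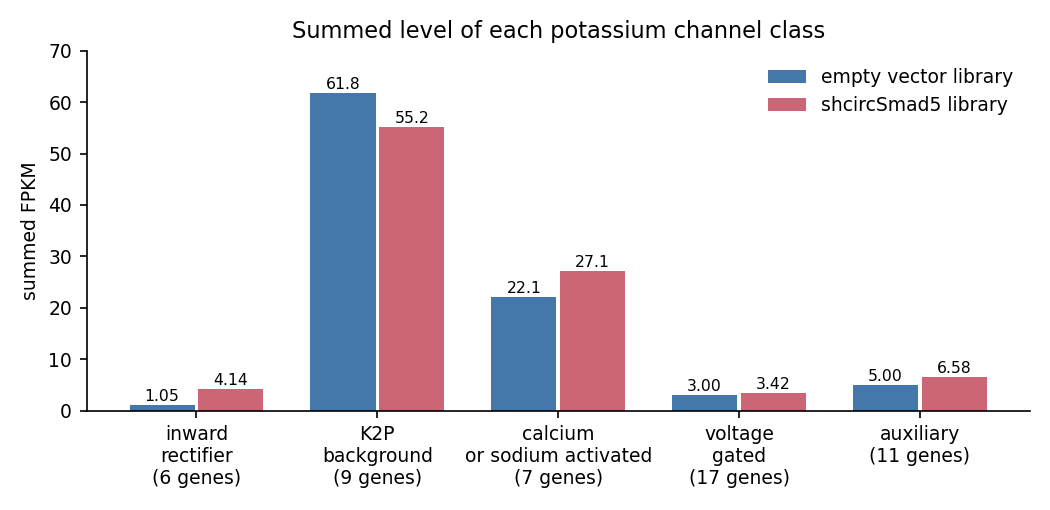
Summed deposited FPKM of each potassium channel class in the empty vector (blue) and shcircSmad5 (red) libraries, with the number of genes per class. The K2P class holds 61.8 and 55.2 FPKM, the calcium- or sodium-activated class 22.1 and 27.1, and the inward rectifiers 1.05 and 4.14.

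Summed over the 50 genes, the deposited FPKM was 92.9 with the empty vector and 96.4 with the hairpin. With TMM factors applied the sums were 94.98 and 94.4, so the sum of the family has no direction that holds under both scalings. By class, K2P genes held 66.5% and 57.3% of the sum, calcium- or sodium-activated channels 23.7% and 28.1%, auxiliary subunits 5.37% and 6.82%, voltage-gated genes 3.23% and 3.54%, and inward rectifiers 1.13% and 4.30%.

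The remaining 36 genes stayed under 20 counts in both libraries and were not judged by the size rule. Of these, 8 had 0 in both, 10 had counts in the empty vector library alone, 8 in the shcircSmad5 library alone and 10 in both. None had more than 18 counts or 0.191 FPKM. Together they summed to 122 and 90 counts, a log2 ratio of -0.47 (-0.88 to -0.06). The lower sum rests on Kcnk15 (15 and 0), Kcnj4 (14 and 3), Kcnk6 (13 and 0) and Kcnd3 (12 and 0). Others went the other way, among them Kcnab3 (9 and 18) and Kcnq1 (3 and 12), so the sum is not a result about the 36 genes as a group. Kcnk15, Kcnk6 and Kcnd3 had 10 or more counts in the empty vector library and 0 with the hairpin. Against a floor of 3 counts with the hairpin, Kcnk15 was 5.10-fold lower (1.44 to 27.5). On the same floor Kcnk6 was 4.42-fold lower (1.22 to 24.2) and Kcnd3 4.08-fold lower (1.10 to 22.6). A count of 0 does not show that these genes were silent.

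Potassium handling outside the family was read from a list of 82 genes for the sodium pump, cation-chloride cotransport, channel partners, other cation channels, volume-regulated anion channels and calcium entry, of which 50 had enough counts. Of these 50, 1 was higher and 5 were lower, beside 8.43% and 6.24% of all genes. Their median log2 ratio was -0.37, beside -0.02 for all genes, with 39 below 0 and 11 above. Under 5 other scalings the list's median lay between -0.36 and -0.29, with 39 genes below 0 each time. The list was chosen with the low value of Fxyd2 known. Of its genes, those named without a call were picked after their values were seen, apart from Calm2 and Calm3.

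**Figure D5:**
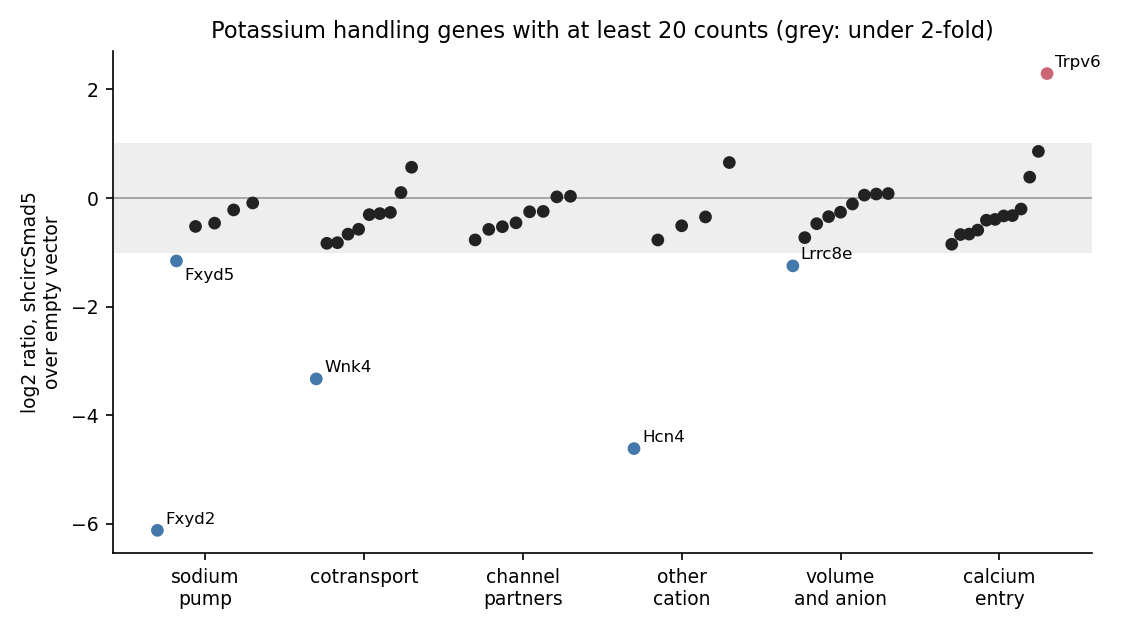
Log2 ratio of shcircSmad5 over empty vector for the 50 potassium handling genes with at least 20 counts, by group and in rising order within each. Outside the grey 2-fold band lie Fxyd2, Fxyd5, Wnk4, Lrrc8e and Hcn4 below, and Trpv6 above.

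The sodium pump carries potassium into the cell. Its beta subunit genes Atp1b3 (6440 and 6174 counts) and Atp1b1 (823 and 610) had log2 ratios of -0.09 and -0.46. The pump modulator gene Fxyd2 was at 545 and 8 counts, 69.6-fold lower (35.05 to 162), and Fxyd5 was at 188 and 86, 2.23-fold lower (1.72 to 2.92). All 6 pump genes with enough counts had log2 ratios below 0.

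Cotransporters of potassium with chloride help set cell volume. The potassium-chloride cotransporter genes Slc12a4 and Slc12a7 had log2 ratios of -0.82 and -0.83, each short of 2-fold, and the sodium-potassium-chloride cotransporter gene Slc12a2 had -0.27. The cotransport kinase gene Wnk4 was at 276 and 28 counts, 10.1-fold lower (6.81 to 15.4). Its abundant relative Wnk1 had 85850 and 129818 counts, a log2 ratio of 0.57 (0.55 to 0.58). Lrrc8e, a subunit of the volume-regulated anion channel, was at 347 and 149 counts, 2.38-fold lower (1.96 to 2.90), whereas the obligate subunit Lrrc8a had a log2 ratio of 0.05.

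Among the other cation channels, the pacemaker channel gene Hcn4 was at 24 and 1 counts, 24.5-fold lower (4.00 to 1008). None of 8 channel partner genes was called, and Calm2 and Calm3, which encode the calmodulin that gates Kcnn4 channels, had log2 ratios of -0.53 and -0.25. Of 12 calcium entry genes, Trpv6 was 4.90-fold higher (1.64 to 19.7) on 4 and 20 counts. The store-operated entry genes Stim1, Stim2 and Orai1 had log2 ratios of -0.59, -0.67 and -0.39. The stretch channel gene Piezo1 had a log2 ratio of 0.38 (0.34 to 0.43).

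Many potassium channel genes are known from neurons, glia, muscle and vessels, so the markers of these cells are given beside them. Of 6 neuron markers 4 were in the table. Snap25 had 4 and 2 counts, Syt1 0 and 2, and Syn1, which was lower by the size rule as Kcnb2 and Hcn4 were, 65 and 6. Map2 had 10595 and 11065 counts and made up most of the summed neuron level of 278 and 282 CPM. Of 5 endothelial markers, Cdh5 was at 0 in both libraries, Pecam1 (81 and 27 counts), Kdr (33 and 4) and Vwf (33 and 6) were lower, and the sum was 3.96 and 0.943 CPM. The 4 muscle markers in the table summed to 0.260 and 0.204 CPM and the 6 fibroblast markers to 4.19 and 1.68 CPM. Nearly all of the fibroblast sum came from Pdgfra, which was lower by the size rule (161 and 62 counts), while Col1a1, Lum and Dcn were at 0 in both. The 3 Schwann cell markers in the table summed to 119 and 140 CPM, almost all from Mbp. The 3 melanocyte markers summed to 22.2 and 11.7 CPM, mostly from Mitf (829 and 426 counts, not called). The 4 leukocyte markers summed to 7.63 and 5.94 CPM, mostly from Cd68 (249 and 225 counts), while Csf1r (36 and 8) was lower. Their part in the low value of Kcnb2 was not tested. In bulk RNA, fewer cells of a type and less RNA per cell cannot be told apart.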

How the data were processed

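Gene-level RNA sequencing values of 2 libraries, 1 per group, were used. Per the file headers, the authors deposited counts and FPKM for each gene in both libraries. The counts are raw. The deposited FPKM values follow from them: with the column total as depth, 100.0% of values above 0 gave a gene length whole within 0.001 bases, equal to the GENCODE M21 exonic length for 98.0% and 98.1% of genes. The submitters' processing notes name HISAT2, HTSeq 0.13.5, GRCm38 and, with no role stated, GRCh38. Annotation, alignment options and strand mode were not given in the sources used here.

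TMM factors over all genes came from edgeR 4.0.16 (R 4.3.3). Ratios carry exact 95% intervals (Clopper-Pearson) from how each gene's reads divide between the libraries, single levels exact Poisson intervals, and ratios of ratios conditional exact odds ratio intervals (scipy 1.17.1). All cover counting error only, since each group has 1 library. PCR copies were not accounted for here, so the intervals may be too narrow. For ratios, 0 counts were raised to a floor of 3. There was no test with 1 library per group. The size rule was run on simulated Poisson counts with known folds. These hold counting error and no variation between cultures, so the run cannot show how often the rule errs between 2 separate lines. Alternatives were other scalings, among them DESeq2 1.42.0 size factors, other count minimums and fold limits, log2(FPKM + 0.1), a prior count of 2, and chromosome centring. The rule for named genes took members that passed the size rule, reached 100 counts or were among the 5 highest by mean FPKM, and list genes that passed, or the 3 with most counts where none did. Other members are also given, and some other list genes were picked after their values were seen. Members and lists were chosen with earlier results of these data known. Positions come from GENCODE M21 (GRCm38) by gene ID, and promoter sequences from RefSeq (GRCm38.p6). GENCODE M21 holds 92 genes of this name pattern, and the 42 outside the table were not analysed here. The number of value columns matched to no library was 0. Some genes of the family and the lists enter the counts and sums but are not reported here by name.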

Additional observations from a re-analysis of the deposited data

How the results depend on the processing

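Of 112 values of single channel genes under 8 alternatives, 99 stayed within the counting interval of the main value, 13 left it and 0 of the called genes changed sign (Kcna4, not called, went from -0.11 to 0.05 with each chromosome centred). Most of the 13 were values of Kcnn4 and Kcnk1. The log2 ratio of Kcnj15 ranged from 3.23, on the log2(FPKM + 0.1) scale, to 3.78. The count of channel genes higher went from 1 to 2 with total counts, upper quartile scaling, totals without the mitochondrial and top 20 genes, TMM over protein-coding genes and each chromosome centred, which added Kcnj14 each time. It was 2 with no count minimum, which added Kcnq1, and 3 with a fold limit of 1.5. The count lower went from 2 to 0 on the log2(FPKM + 0.1) scale and with at least 100 counts, to 6 with no count minimum and to 1 with a fold limit of 3. The median log2 ratio of the channel genes was -0.12 with no count minimum and 0.43 with at least 100 counts, so it has no stable direction. The potassium handling genes higher went from 1 to 0 on the log2(FPKM + 0.1) scale and with at least 100 counts, and to 3 with a fold limit of 1.5. Those lower went from 5 to 3 on the log2(FPKM + 0.1) scale and to 15 with a fold limit of 1.5. Fewer or more genes tested, smaller or larger limits, and the pseudocount's pull on low values are part of how these alternatives are built. The share of all genes called is given here only for the main rule. The counts under other settings therefore cannot be set against all genes and are not a result about these genes.

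The summed FPKM (empty vector and shcircSmad5) was also taken without the highest member of each library. It was 0.821 and 0.659 for voltage-gated genes, 0.125 and 0.102 for calcium- or sodium-activated channels, and 3.21 and 4.77 for K2P genes. For auxiliary subunits it was 0.399 and 0.502, and for all 50 genes 34.3 and 46.0. In each of these the same gene was left out of both libraries. For inward rectifiers it was 0.371 without Kcnj14 (empty vector) and 1.41 without Kcnj15 (shcircSmad5). Those 2 sums therefore cover different genes and do not show the class without Kcnj15. The sums of all 50 genes rescaled with TMM were 94.98 and 94.4. No paired analysis was possible because each group has 1 library. Depth limits the 36 genes under 20 counts, where a difference of several-fold may not be detectable.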
